A study of Homo sapiens with 11 samples.

Results

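The genes described here are 10 genes of the urokinase system and of matrix breakdown, taken by their symbols from 2 count tables that each list 26485 genes. They fall into 3 genes of the urokinase system (PLAU, PLAUR and SERPINE2), 4 matrix metalloproteinases (MMP1, MMP2, MMP7 and MMP14) and 3 tissue inhibitors of metalloproteinases (TIMP1, TIMP2 and TIMP3). RNA came from Caki-1-SR, a subline of the human clear cell renal cell carcinoma line Caki-1, which was isolated from a skin metastasis. Growth in 1 µM sunitinib, which blocks receptor tyrosine kinases, made the subline resistant to that drug, and the study used its clone 1, so that every group rests on a single clone. Treated cells (ODC) received a combination of drugs: Rapta-C, which contains ruthenium, at 2 µM, the EGFR inhibitor erlotinib at 1 µM, the diabetes drug metformin at 1 µM and parthenolide, a compound from plants, at 5 µM. Control cells (CTRL) received none of the drugs of this combination. The cultures of CTRL and ODC alike are listed with 1 µM sunitinib. The control cells are called untreated in one place of the study and sham-treated in another.

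There were 3 CTRL and 3 ODC libraries at 24 h, and 2 CTRL and 3 ODC libraries at 2 h. Library numbers are those of the submitters' titles: at 24 h the CTRL libraries are 1, 3 and 5 and the ODC libraries 2, 4 and 6, and at 2 h the CTRL libraries are 1 and 2 and the ODC libraries 3, 4 and 5. The labels do not say whether the libraries of a group came from separate cultures, so the p-values measure the spread between these libraries, which may be technical. The titles carry one month for the 2 h libraries and another for the 24 h libraries, and time and month cannot be told apart. The 24 h libraries summed to between 17785229 and 20882856 counts, and the 2 h libraries to between 25782895 and 31118349. Levels are given as CPM, the count scaled to the library total and corrected with a TMM factor. The floor used here, 3 counts, equals 0.144 to 0.166 CPM in the 24 h and 0.0953 to 0.116 CPM in the 2 h libraries, and covers counting error only.

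The renal markers PAX8, KRT8 and KRT18 were detected in every library, while CA9 and PAX2, both also markers of this tumour type, stood at or near 0 in all of them. At 24 h 6 of the 9 renal markers exceeded 3 counts in each library, and their sum was 1645 to 2101 CPM in CTRL and 1396 to 1869 CPM in ODC. KRT8 (log2 fold change, ODC against CTRL, -0.62, adjusted p = 0.202, edgeR's quasi-likelihood test), KRT18 (-0.71, adjusted p = 0.128) and LHX1 (-1.46, adjusted p = 0.0923) lay lower in every ODC than in every CTRL library at 24 h, with unadjusted p-values from 0.00049 to 0.0069, while PAX8 had 0.33 (adjusted p = 0.600) with overlapping groups. Of all genes tested at 24 h, 17.9% had CTRL and ODC libraries that did not overlap. At 2 h, CTRL library 1 stood apart. All 8 of 8 fibroblast markers exceeded 3 counts in it, against 2 to 5 in the other libraries. Without COL1A1 and PDGFRB, which all libraries held, the fibroblast markers summed to 86.2 CPM in that library and to between 0 and 0.680 CPM in the others. In addition, 31 genes had at least 20 counts in CTRL library 1 of 2 h and at most 1 count in any other library, and TIMP3 was one of them. The 6 endothelial markers summed to 1.32 CPM in this library and to at most 0.553 CPM in any other. The 2 h fold changes of the members are therefore also given without this library. In the 24 h libraries the summed level of the 7 immune markers was 5.91 to 6.58 CPM in CTRL and 8.51 to 8.70 CPM in ODC. Most of this sum was CD68. Without CD68 it was 0.288 to 0.719 CPM in CTRL and 0.961 to 1.68 CPM in ODC, still without overlap. ITGAM lay higher in every ODC than in every CTRL library (means 0.796 and 0.267 CPM, adjusted p = 0.262, edgeR's quasi-likelihood test). The same held for CD14 (means 0.343 and 0.105 CPM, not tested), while CSF1R overlapped (0.134 and 0.138 CPM). PTPRC and CD3E had at most 2 counts in any 24 h library. The part of these markers in the results was not tested.

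Urokinase, the product of PLAU, is a secreted serine protease that turns plasminogen into plasmin. PLAUR encodes the receptor that holds urokinase at the cell surface, and SERPINE2 encodes protease nexin-1, an inhibitor of thrombin and of plasminogen activators. Plasmin cleaves fibrin and matrix proteins and can activate the proforms of several matrix metalloproteinases. MMP1 is an interstitial collagenase, MMP2 (gelatinase A) cleaves denatured and basement membrane collagens, MMP7 (matrilysin) is a small protease of epithelial cells, and MMP14 is anchored in the membrane and activates the MMP2 proform. TIMP2 takes part in that activation on the cell surface and, like TIMP1 and TIMP3, blocks active metalloproteinases. TIMP3 is bound to the matrix and also blocks several ADAM proteases.

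Promoter sequence is shown for the members whose libraries varied most alike (PLAU and PLAUR) and for MMP7, the member with the largest fold change at 24 h. The sequences are those of RefSeq on GRCh38.p14, which gave 9 windows of 300 bases for 7 of the 10 members. MMP1, MMP2 and TIMP2 had no entry. In GENCODE release 44 the MMP7 and PLAU stretches lie outside every exon of their own gene, the PLAU stretch overlaps an exon of the antisense gene C10orf55, and the PLAUR stretch lies inside the first exon of an annotated PLAUR transcript. Each is written 5′ to 3′ on the strand of the gene, and the capitals mark the AP-1 letters TGANTCA, the TATA box letters TATAAA or the Sp1 letters GGGCGG.
MMP7, chr11:102530751-102530997, minus strand: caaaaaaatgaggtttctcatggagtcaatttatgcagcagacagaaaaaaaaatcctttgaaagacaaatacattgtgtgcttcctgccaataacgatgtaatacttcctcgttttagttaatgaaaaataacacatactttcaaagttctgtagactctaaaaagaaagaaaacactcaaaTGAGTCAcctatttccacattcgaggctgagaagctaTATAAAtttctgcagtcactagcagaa
PLAUR, chr19:43670339-43670365, minus strand: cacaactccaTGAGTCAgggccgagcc
PLAU, chr10:73910882-73911103, plus strand: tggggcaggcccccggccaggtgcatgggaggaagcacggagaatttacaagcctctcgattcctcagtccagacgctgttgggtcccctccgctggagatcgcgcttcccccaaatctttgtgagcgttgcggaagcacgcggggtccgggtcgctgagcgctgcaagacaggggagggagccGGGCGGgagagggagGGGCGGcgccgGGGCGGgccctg

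Among the 9 windows, the AP-1 letters (searched on both strands, a palindrome counted once) stood only in MMP7, from base -67, and in PLAUR, from base -186, counted from the start site. Of 35116 promoter windows of the same length, 7.71% held them. The TATA box letters stood only in MMP7, from base -30, and 11.5% of all windows held them. The Sp1 letters were in 45% of all windows. The PLAU window shown held 3 copies on the gene's strand, and the other PLAU window held 0. The same letters also stood in windows of SERPINE2, MMP14, TIMP1 and TIMP3, with 5 copies in TIMP3. The ETS core letters GGAA occurred in 95.5% of all windows. The NF-kB motif, searched as a fixed letter pattern on both strands, occurred in 11.3% of all windows and in none of the members' windows. A match describes these letters in this window and is no measured binding site.

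Levels between genes were compared per length, as CPM divided by the kilobases of the gene's merged exons in GENCODE release 44. In CTRL cells at 24 h PLAU was the most abundant member with 252 ± 75.6 CPM per kilobase (SD, n = 3), and its 3 libraries lay above those of TIMP2 at 120.0 ± 24.8. TIMP1 followed with 57.6 ± 7.73, MMP14 with 32.6 ± 6.02 and PLAUR with 25.1 ± 12.8 CPM per kilobase. The ranges of MMP14 and PLAUR overlapped, as did those of SERPINE2 (5.58 ± 1.49) and MMP1 (3.85 ± 3.04). MMP2 and MMP7 stood lowest of the detected members with 0.445 ± 0.108 and 0.232 ± 0.186 CPM per kilobase, with overlapping ranges. TIMP3 had no count in any 24 h library, which allows up to 3 counts in each. The cells thus held much PLAU, TIMP2 and TIMP1 RNA, and the membrane protease MMP14 stood above the secreted proteases MMP1, MMP2 and MMP7.

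The order in ODC cells at 24 h was the same except that MMP7 (0.829 ± 0.843 CPM per kilobase, SD, n = 3) stood before MMP2 (0.656 ± 0.162), and these ranges overlapped. In CTRL cells at 2 h PLAU led with 178 ± 41.4 CPM per kilobase (SD, n = 2), and its range overlapped that of TIMP2 (149 ± 7.03). MMP2 came after PLAUR there, at 17.9 ± 3.42 CPM per kilobase, and overlapped MMP1 at 14.4 ± 10.3, which overlapped SERPINE2 at 6.61 ± 1.50. The ODC cells at 2 h had the same order as the CTRL cells at 2 h. Set side by side and not tested, CTRL cells held 84.2 ± 16.1 CPM of MMP2 at 2 h (SD, n = 2) and 2.09 ± 0.508 CPM at 24 h (SD, n = 3). The corresponding means were 39.3 and 10.6 CPM for MMP1, 6.44 and 0.538 CPM for MMP7, and 253 and 151 CPM for MMP14. These 4 proteases were lower in the 24 h libraries, where month and time cannot be told apart and the tables were scaled separately. TIMP1 (129.7 and 83.3 CPM), TIMP2 (924 and 745 CPM) and SERPINE2 (59.2 and 49.9 CPM) also had lower CTRL means at 24 h, while PLAU had a higher one (524 and 743 CPM). PLAUR, at 110.1 and 112 CPM, had nearly the same CTRL mean at both times. At 2 h CTRL library 1, the one with fibroblast markers, held more MMP1 (59.4 CPM) and MMP7 (10.8 CPM) than library 2 (19.3 and 2.12 CPM). ODC libraries 3 and 5 held 54.9 and 49.6 CPM of MMP1 and 9.78 and 21.2 CPM of MMP7. Their fibroblast markers without COL1A1 and PDGFRB summed to 0.254 and 0.483 CPM. ODC library 4, with 0.680 CPM of these markers, held 17.7 CPM of MMP1 and 3.98 CPM of MMP7. The part of the markers was not tested.

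**Figure D1:**
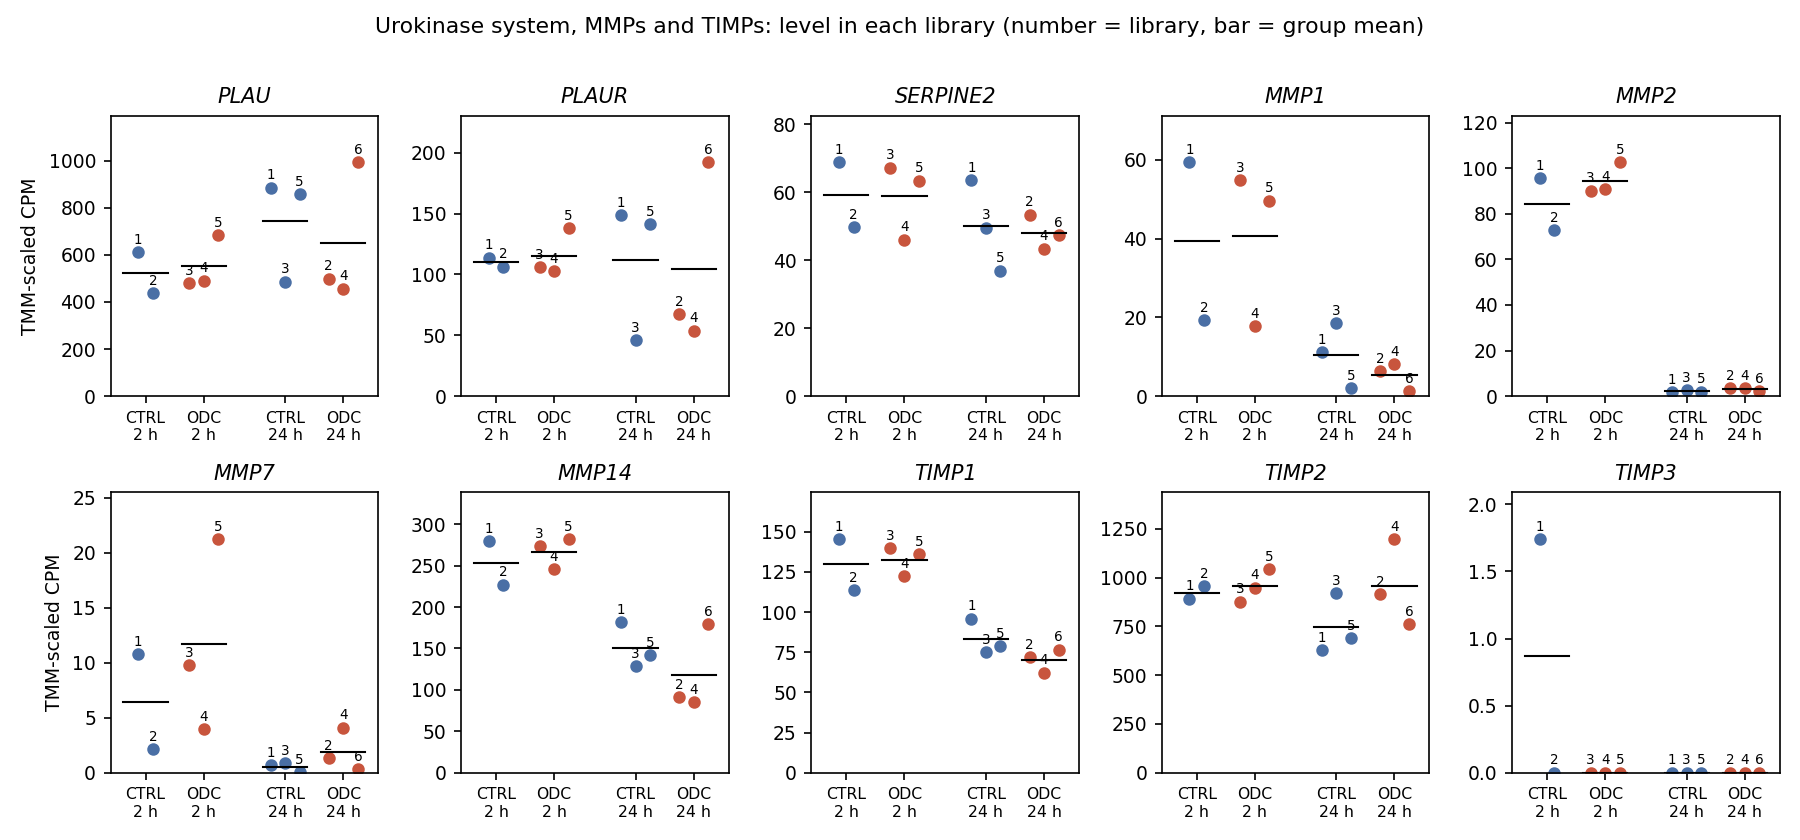
Level of each of the 10 members in each library. The y axis gives TMM-scaled CPM, each point is 1 library with its number, blue for CTRL and red for ODC, and the bar is the group mean. PLAU and PLAUR at 24 h are high in libraries 1, 5 and 6 and low in libraries 2, 3 and 4, whatever the treatment, MMP2 is near 0 at 24 h, and TIMP3 is above 0 in 1 library only.

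To ask which members the drug combination changed, ODC and CTRL libraries were compared at each time with edgeR's quasi-likelihood test. At 24 h none of the 9 members tested passed an adjusted p of 0.05 (Benjamini-Hochberg over 12689 genes), where 0.189% of all genes passed. None had an unadjusted p under 0.05 either, where 12.2% of all genes had one. DESeq2, run as an alternative, also passed none and gave 1 member, MMP7, with an unadjusted p under 0.05. The share of all genes with such a p in DESeq2 is not given here. TIMP3 could not be tested, since its counts were 0. In no tested member did the 3 ODC libraries lie wholly above or below the 3 CTRL libraries, against 17.9% of all genes tested. The median log2 fold change was -0.10 over the 9 members (3 higher, 6 lower in ODC) and 0.00089 over all genes tested. What follows gives the values behind this for each role, with the interval that the data leave for each change.

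PLAU lies on chromosome 10 of hg38 from 73909177 to 73917496 on the plus strand and overlaps the antisense gene C10orf55. Its level at 24 h was 886, 486 and 857 CPM in CTRL libraries 1, 3 and 5, and 499, 457 and 993 CPM in ODC libraries 2, 4 and 6. The highest and the lowest value of the 6 both came from ODC libraries, so the groups overlapped fully. The log2 fold change, ODC against CTRL, was -0.19 with a 95% interval from -0.96 to 0.57 (adjusted p = 0.871, edgeR's quasi-likelihood test). Whether the HTSeq count used strand is not given in the sources used here, so reads of PLAU and of its antisense neighbour may not be separable.

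PLAUR, on chromosome 19 from 43646095 to 43670547, stood at 149, 46.1 and 141 CPM in CTRL libraries 1, 3 and 5 and at 67.1, 53.7 and 192 CPM in ODC libraries 2, 4 and 6. The same libraries were high and low as for PLAU. Within CTRL, library 1 held more than 3 times the PLAUR level of library 3, and within ODC library 6 held more than 3 times that of library 4. The log2 fold change was -0.10 (95% interval -1.38 to 1.17, adjusted p = 0.964, same test), which leaves room for more than a doubling or a halving. Over the 6 libraries of 24 h, the Pearson correlation of log2 CPM between PLAU and PLAUR was 0.98 after the mean of the time point was subtracted, and over the 5 libraries of 2 h it was 0.87. These points share libraries and are given as a description.

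SERPINE2 (chromosome 2, from 223975045 to 224039318) was steadier. It measured 63.4, 49.5 and 36.8 CPM in the CTRL libraries and 53.3, 43.4 and 47.2 CPM in the ODC libraries, in the order of their numbers. All 3 ODC values lay inside the CTRL range, and the log2 fold change was -0.058 (95% interval -0.50 to 0.38, adjusted p = 0.934).

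MMP1 varied strongly between libraries. The gene lies on chromosome 11 from 102789401 to 102798160 and overlaps WTAPP1 on the other strand. MMP1 measured 11.2, 18.5 and 1.94 CPM in CTRL libraries 1, 3 and 5 and 6.39, 8.11 and 1.25 CPM in ODC libraries 2, 4 and 6. Libraries 5 and 6 were low in both groups, which left the groups overlapping. The CTRL mean was 10.6 ± 8.31 CPM and the ODC mean 5.25 ± 3.57 CPM (SD, n = 3 each), with a log2 fold change of -1.02 (SE 0.79, 95% interval -2.84 to 0.81, adjusted p = 0.666, edgeR's quasi-likelihood test).

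MMP7, on the same chromosome from 102520508 to 102530750, was scarce at 24 h. CTRL libraries 1, 3 and 5 held 14, 17 and 1 counts, or 0.673, 0.887 and 0.0553 CPM. ODC libraries 2, 4 and 6 held 27, 76 and 7 counts, or 1.33, 4.11 and 0.336 CPM. The libraries with the fewest counts were again numbers 5 and 6, and the lowest ODC library lay below 2 of the CTRL libraries. The log2 fold change of 1.79 had the widest interval of all members, from -0.34 to 3.92 (SE 0.92, adjusted p = 0.491, same test).

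MMP2 (chromosome 16, from 55389700 to 55506691) stood at 1.68, 2.66 and 1.94 CPM in CTRL and at 3.59, 3.46 and 2.21 CPM in ODC at 24 h. ODC libraries 2 and 4 lay above all CTRL libraries, while ODC library 6 lay between CTRL libraries 5 and 3. MMP2 had a log2 fold change of 0.56 (SE 0.29, 95% interval -0.099 to 1.22, unadjusted p = 0.0857, adjusted p = 0.485), the smallest p of any member in edgeR's quasi-likelihood test at 24 h. The gene overlaps several others, MMP2-AS1 on the opposite strand among them.

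MMP14, on chromosome 14 from 22836560 to 22849041, measured 182, 129 and 142 CPM in CTRL libraries 1, 3 and 5. Its ODC values were 91.5 and 84.9 CPM in libraries 2 and 4, below every CTRL library, and 179 CPM in library 6, near the top of the CTRL range. The log2 fold change over all libraries was -0.35 (SE 0.28, 95% interval -1.0 to 0.30, adjusted p = 0.681). This value depended on library 6. Without that library MMP14 had a log2 fold change of -0.78 (unadjusted p = 0.0015, adjusted p = 0.0877, edgeR's quasi-likelihood test).

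TIMP1 lies on chromosome X from 47582408 to 47586789, inside SYN1, which runs on the opposite strand. It measured 96.0, 75.0 and 78.8 CPM in the CTRL libraries and 72.0, 62.4 and 76.7 CPM in the ODC libraries. ODC library 6 was the only one above a CTRL library. The mean was 83.3 ± 11.2 CPM in CTRL and 70.3 ± 7.29 CPM in ODC (SD, n = 3 each), a log2 fold change of -0.24 (SE 0.13, 95% interval -0.54 to 0.052, adjusted p = 0.498, edgeR's quasi-likelihood test).

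TIMP2 (chromosome 17, from 78852977 to 78925387) measured 628, 919.7 and 688 CPM in CTRL and 914, 1198 and 763 CPM in ODC. CTRL library 3 was higher than ODC libraries 2 and 6. TIMP2 had a log2 fold change of 0.36 (SE 0.20, 95% interval -0.091 to 0.82, adjusted p = 0.516, same test). For PLAU, SERPINE2, TIMP1 and TIMP2 the 24 h intervals exclude a doubling and a halving.

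**Figure D2:**
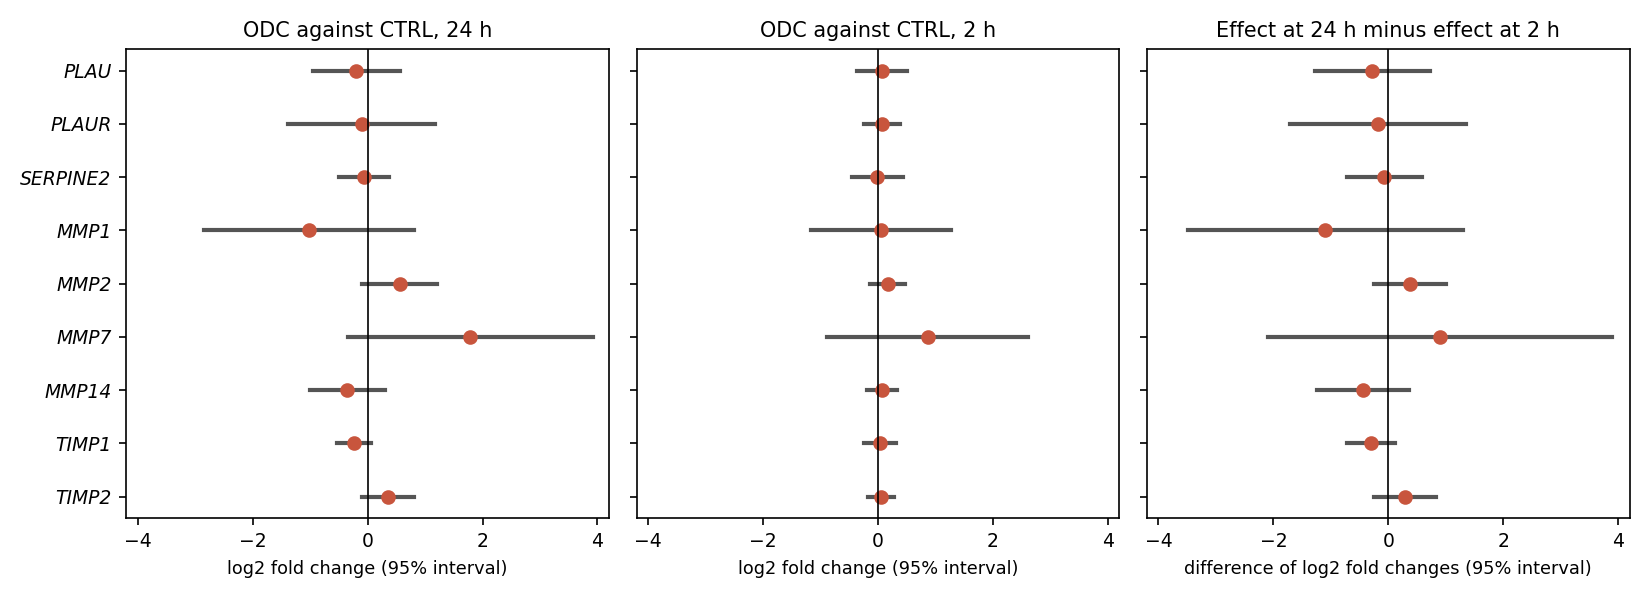
Log2 fold changes of the 9 members tested. The left and middle panels give ODC against CTRL at 24 h and at 2 h, the right panel the effect at 24 h minus the effect at 2 h, with points for estimates and lines for 95% intervals from edgeR's quasi-likelihood fit. Every line crosses 0, the lines at 2 h are mostly the shortest, and MMP1 and MMP7 have the longest in all 3 panels.

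Leaving out ODC library 6 changed more members than MMP14. CTRL library 5, which like library 6 was high for PLAU and PLAUR, stayed in that fit, so the groups were unbalanced. In it 5 of the 9 members had an unadjusted p under 0.05 at 24 h, where 15.6% of all genes had one. None passed the adjusted p, where 0.545% did. Besides MMP14 these were PLAU (log2 fold change -0.64, adjusted p = 0.276), MMP2 (0.75, adjusted p = 0.245), MMP7 (2.29, adjusted p = 0.198) and TIMP2 (0.50, adjusted p = 0.260). Without CTRL library 3, MMP2 (0.77, adjusted p = 0.373) and TIMP2 (0.54, adjusted p = 0.325) had an unadjusted p under 0.05, as 12.9% of all genes did. Without CTRL library 5 MMP1 had one (-1.51, adjusted p = 0.460), as did 10.4% of all genes.

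The 24 h libraries alternate between CTRL and ODC by number. Deviations from the group means correlated at 0.20 between libraries 1 and 2, at 0.58 between 3 and 4 and at 0.45 between 5 and 6, and a fit with these adjacent numbers as a block was made as an alternative. What the pairs share is not stated. CTRL library 1 correlated slightly more with ODC library 6 (0.23) than with library 2. The pairing was taken from correlations in these same counts, so the p-values of the paired fit are no independent support. In the paired fit 2 of 9 members passed the adjusted p of 0.05, where 5.41% of all genes passed. MMP1 fell with a log2 fold change of -0.94 (SE 0.16, adjusted p = 0.0282, edgeR's quasi-likelihood test). MMP7 rose with a log2 fold change of 1.74 (SE 0.37, adjusted p = 0.0451). Over all alternatives the adjusted p ran from 0.0282 to 0.957 for MMP1 and from 0.0451 to 0.896 for MMP7.

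Within the pairs the ODC library held 0.571, 0.438 and 0.645 times the MMP1 level of its CTRL neighbour, and 1.97, 4.63 and 6.08 times the MMP7 level. The ratio of 6.08 rests on 7 counts against 1. For TIMP2 the ratios were 1.46, 1.30 and 1.11 (log2 fold change 0.36, unadjusted p = 0.0052, adjusted p = 0.0663 in the paired fit), and for TIMP1 0.750, 0.832 and 0.972 (-0.24, unadjusted p = 0.0288, adjusted p = 0.158). MMP2 was higher in the ODC library of every pair, by ratios of 2.13, 1.30 and 1.14. In all, 5 of the 9 members had 1 direction in all 3 pairs, where 46.5% of all genes did. PLAU, PLAUR, SERPINE2 and MMP14 did not. The ODC library of the last pair held more of each of these 4 than its CTRL neighbour, and that of the first pair less.

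**Figure D3:**
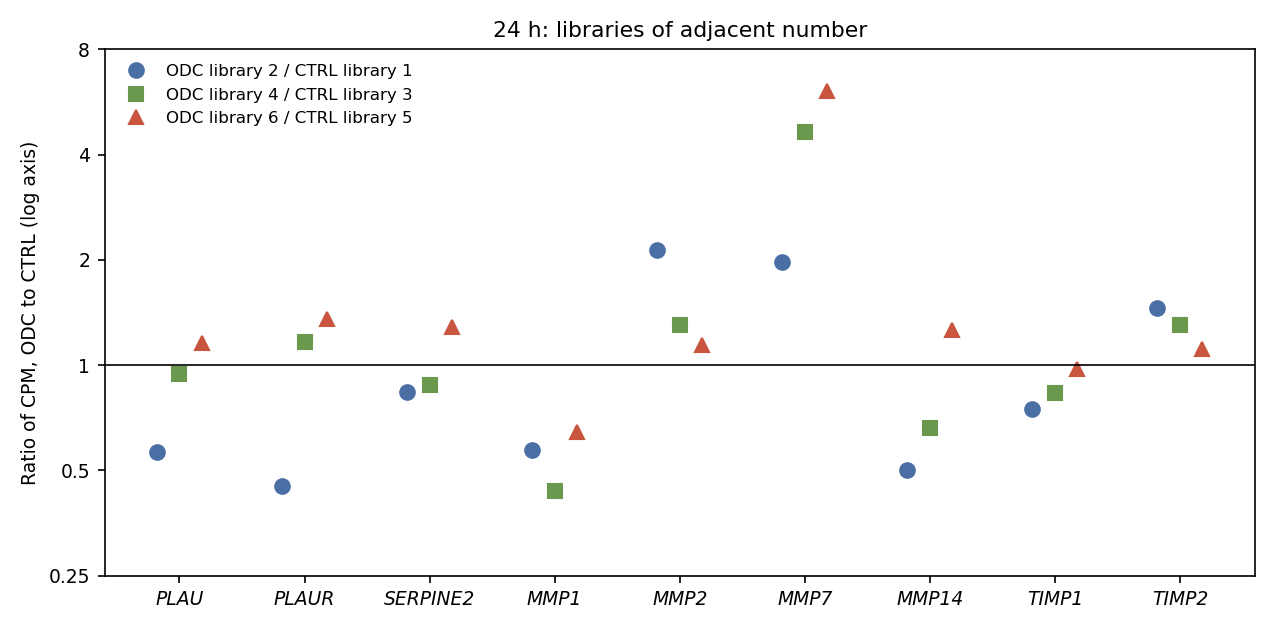
Ratio of the ODC level to the CTRL level, on a log axis, for the 3 pairs of 24 h libraries with adjacent numbers. Each symbol is 1 pair, and the line marks a ratio of 1. MMP1 and TIMP1 lie below the line and MMP2, MMP7 and TIMP2 above it in every pair, while the other 4 members lie on both sides.

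At 2 h the question was whether any member responded early. None of 9 members passed an adjusted p of 0.05 over 13332 genes and none had an unadjusted p under 0.05, while over all genes 0% and 2.34% did in edgeR's quasi-likelihood test. DESeq2, run as an alternative, passed none either. With the exception of MMP7, every log2 fold change lay between -0.0081 and 0.17, and the median was 0.069 (8 higher, 1 lower), against -0.0060 over all genes tested. No member had ODC libraries wholly above or below the CTRL libraries, where 15.3% of all genes did.

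PLAU at 2 h measured 611 and 438 CPM in the CTRL libraries and 479.6, 491 and 683 CPM in the ODC libraries. Its log2 fold change of 0.072 had a 95% interval from -0.36 to 0.51. PLAUR measured 114 and 106 CPM in CTRL and 106, 103 and 138 CPM in ODC (interval -0.25 to 0.38). MMP14 measured 279 and 227 CPM in CTRL and 273, 246 and 282 CPM in ODC (interval -0.19 to 0.34). For these genes and for SERPINE2, MMP2, TIMP1 and TIMP2 the 2 h intervals exclude a doubling and a halving.

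MMP1 and MMP7 had wider spreads at 2 h as well. MMP1 measured 59.4 and 19.3 CPM in CTRL libraries 1 and 2, and 54.9, 17.7 and 49.6 CPM in ODC libraries 3, 4 and 5. Its log2 fold change was 0.053 (95% interval -1.17 to 1.28). MMP7 measured 10.8 and 2.12 CPM in CTRL and 9.78, 3.98 and 21.2 CPM in ODC, with a log2 fold change of 0.86 (interval -0.88 to 2.60, unadjusted p = 0.287). Libraries 2 and 4, 1 of each group, were the low ones for both genes. Without CTRL library 1, the one with fibroblast markers, MMP7 had a log2 fold change of 2.46 and MMP2 of 0.38, both with an unadjusted p under 0.05 and an adjusted p of 0.999 (edgeR's quasi-likelihood test). Of all genes, 2.51% had such an unadjusted p there and 0% passed the adjusted p. MMP1 moved to 1.08 in that fit (unadjusted p = 0.0757), in which CTRL library 2, low for this gene, alone stood for the control. The other members had log2 fold changes of 0.33 for PLAU, 0.12 for PLAUR, 0.24 for SERPINE2, 0.23 for MMP14, 0.22 for TIMP1 and 0.0030 for TIMP2, none with an unadjusted p under 0.05.

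TIMP3, on chromosome 22 from 32801705 to 32863041 inside SYN3, had 45 counts (1.74 CPM) in CTRL library 1 of 2 h and 0 counts in the other 10 libraries. A count of 0 allows up to 3 counts per library. Its RNA was therefore seen in 1 library of 11, the same that held COL3A1 at 41.8 CPM, COL1A2 at 37.6 CPM and THY1 at 1.08 CPM. The usual filter on low counts removed TIMP3. With a filter of at least 1 count its adjusted p at 2 h was 0.573 in edgeR's quasi-likelihood test. Without CTRL library 2 it was 0.0407, and 0.305% of all genes passed. In that fit CTRL library 1 alone stood for the control, and a lone library is assumed to vary like the ODC libraries. Without CTRL library 1, TIMP3 had no count at all.

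**Figure D4:**
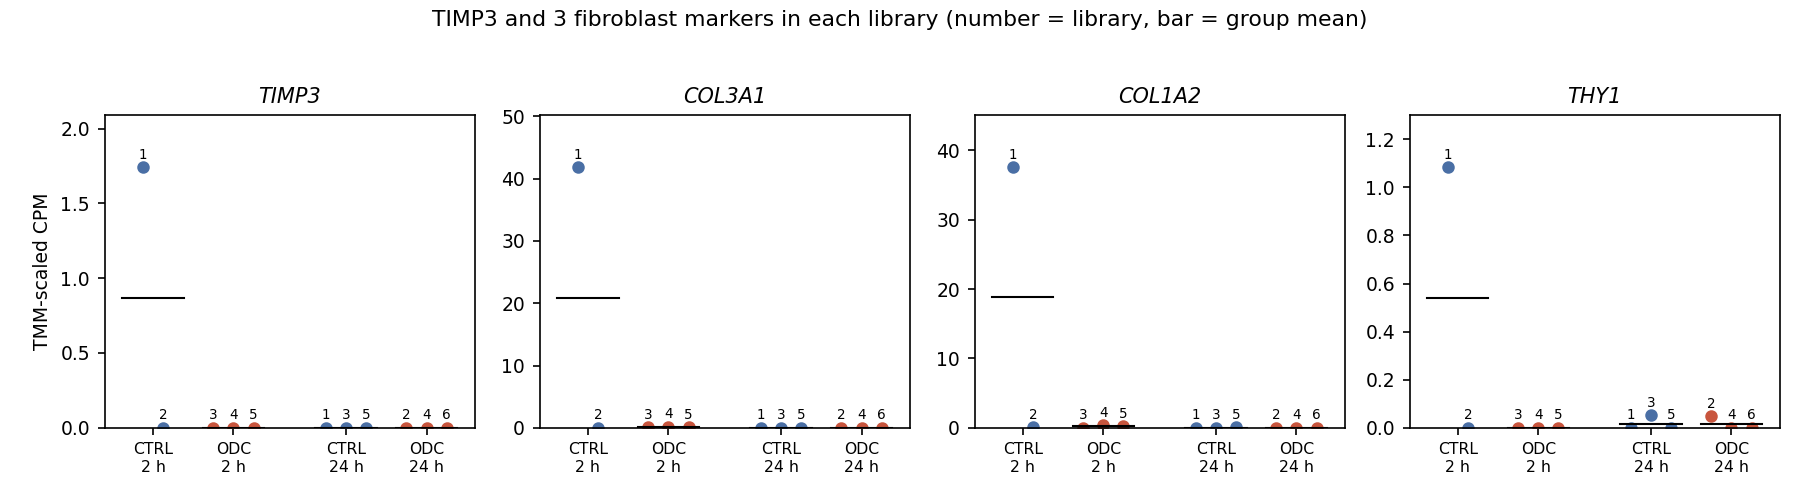
TIMP3 and 3 of the 8 fibroblast markers in each library. The y axis gives TMM-scaled CPM, each point is 1 library with its number, and the bar is the group mean. CTRL library 1 of 2 h holds 1.74 CPM of TIMP3 and 41.8 CPM of COL3A1, and every other library lies at or near 0 in all 4 panels.

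Whether the effect of the drugs differed between the times was tested over 13333 genes, as an interaction term with all 11 libraries in the same model. None of the 9 members passed the adjusted p of 0.05, which 0.015% of all genes did, and none had an unadjusted p under 0.05, which 5.93% had. TIMP1 had the smallest p (effect at 24 h minus effect at 2 h of -0.29 on the log2 scale, 95% interval -0.71 to 0.12, unadjusted p = 0.151, adjusted p = 0.956). The largest differences were those of MMP1 (-1.10, interval -3.49 to 1.29) and MMP7 (0.90, interval -2.09 to 3.89). Without ODC library 6 of 24 h, MMP14 had a difference of -0.88 (unadjusted p = 0.0013, adjusted p = 0.220, edgeR's quasi-likelihood test).

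Other genes of plasminogen activation were taken from a list of 16, of which 10 could be tested at 24 h and 5 had no count in any 24 h library. PLG, which encodes plasminogen, and VTN, which encodes vitronectin, were among those 5, and PLG had 1 count in the whole series. At 24 h 3 of the 10 had an unadjusted p under 0.05 (2 higher, 1 lower in ODC), against 12.2% of all genes, and none passed the adjusted p, which 0.189% of all genes did. PLAT and LRP1 were among these 3, and both had ODC libraries wholly on one side of the CTRL libraries. Of the 10 genes 3 had such groups, against 17.9% of all genes tested. The median log2 fold change of the 10 was 0.17.

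PLAT encodes tissue plasminogen activator, the other activator of plasminogen. At 24 h it measured 115, 69.7 and 38.8 CPM in CTRL libraries 1, 3 and 5, and 12.8, 6.54 and 21.4 CPM in ODC libraries 2, 4 and 6. Every ODC library lay below every CTRL library. The mean was 74.4 ± 38.2 CPM in CTRL and 13.6 ± 7.48 CPM in ODC (SD, n = 3 each), a log2 fold change of -2.45 (SE 0.49, unadjusted p = 0.0010). The adjusted p was 0.107 in edgeR's quasi-likelihood test and passed 0.05 in 5 of 18 alternatives, over which it ran from 0.00013 to 0.379. In the paired fit, where 5.41% of all genes passed, it was 0.0365. At 2 h the means were 40.4 CPM in CTRL and 36.9 CPM in ODC, and the effects differed between the times by -2.33 (unadjusted p = 0.0029, adjusted p = 0.518).

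LRP1, an endocytic receptor that clears complexes of urokinase and its inhibitors, measured 59.4, 143 and 100.2 CPM in CTRL and 174, 383 and 178 CPM in ODC. Its log2 fold change was 1.28 (SE 0.39, unadjusted p = 0.0110, adjusted p = 0.243, and 0.0102 in the paired fit, where 5.41% of all genes passed). Side by side at 24 h, PLAU had no separation of groups, while the libraries of PLAT and of LRP1 were separated by treatment without passing the adjusted p.

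**Figure D5:**
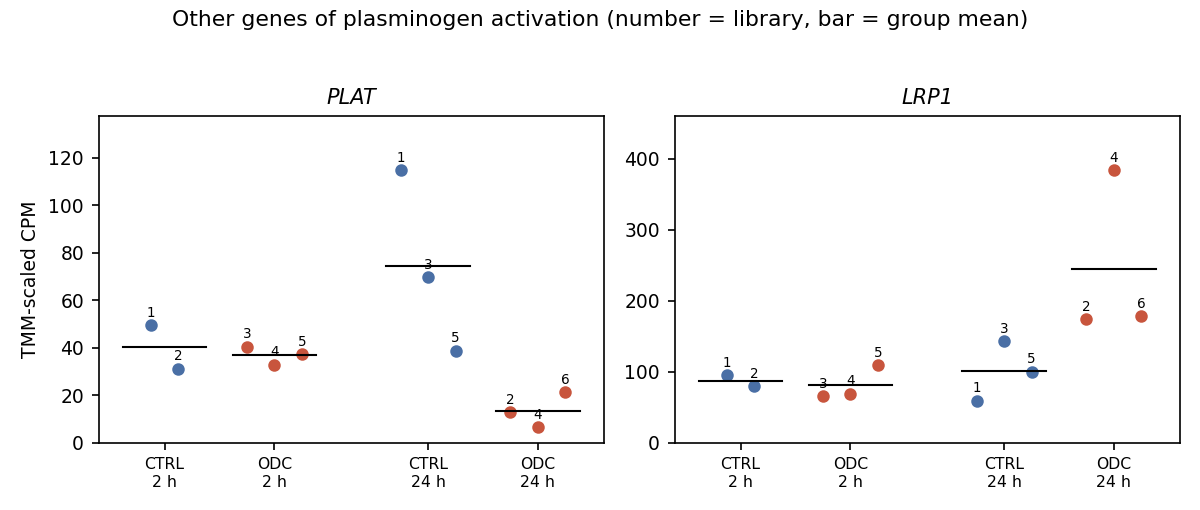
Levels of PLAT and LRP1 in each library. The y axis gives TMM-scaled CPM, each point is 1 library with its number, blue for CTRL and red for ODC, and the bar is the group mean. At 24 h the ODC points lie below all CTRL points for PLAT and above all of them for LRP1, and at 2 h the groups overlap.

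Of 20 other metalloproteinases, 10 had no count in any 24 h library and 5 could be tested there. Of these 5, MMP15 and MMP24, both membrane-bound, had an unadjusted p under 0.05, against 12.2% of all genes, and none passed the adjusted p. Both had higher means in ODC, and 7.2% of all genes had such a p with a higher mean in ODC. MMP15 measured 0.547 ± 0.0941 CPM in CTRL and 1.03 ± 0.275 in ODC (SD, n = 3 each, log2 fold change 0.90, adjusted p = 0.323, edgeR's quasi-likelihood test). MMP24 measured 19.1 ± 6.69 and 31.2 ± 8.80 CPM (0.71, adjusted p = 0.361, and 0.0355 in the paired fit). Of 14 tested ADAM and ADAMTS proteases 4 had an unadjusted p under 0.05, against the same 12.2% of all genes. All 4 had higher means in ODC, a direction seen in these data and not set beforehand. They were ADAMTS9 (log2 fold change 1.03, adjusted p = 0.118), ADAM28 (0.94, adjusted p = 0.183), ADAM17 (0.32, adjusted p = 0.256) and ADAM8 (0.80, adjusted p = 0.369). In the paired fit ADAMTS9 (adjusted p = 0.0434) and ADAM28 (adjusted p = 0.0498) passed, where 5.41% of all genes did. The pairs of that fit were taken from these same counts. Over the 18 alternatives ADAMTS9 passed in 4, with an adjusted p from 0.00058 to 0.447, and ADAM28 in 3, with one from 0.0275 to 0.614. ADAM17 sheds membrane-bound growth factors and is one of the proteases that TIMP3 blocks.

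Among 20 further pericellular proteases and inhibitors 14 were tested at 24 h, 3 had an unadjusted p under 0.05 (2 higher, 1 lower in ODC, against 12.2% of all genes) and none passed the adjusted p. SPINT2, which encodes an inhibitor of serine proteases, measured 10.3 ± 1.19 CPM in CTRL and 6.12 ± 0.124 CPM in ODC (SD, n = 3 each, log2 fold change -0.76, adjusted p = 0.108, edgeR's quasi-likelihood test). The lysosomal proteases CTSD (0.73, adjusted p = 0.125) and CTSL (0.60, adjusted p = 0.374) had higher means in ODC. SPINT2 and CTSD passed in the paired fit (adjusted p = 0.0316 and 0.0110), where 5.41% of all genes did. Over the 18 alternatives SPINT2 passed in 3, with an adjusted p from 0.0072 to 0.379, and CTSD in 4, with one from 0.0023 to 0.458. At 2 h 1 of the 14 genes tested, CTSD, had an unadjusted p under 0.05 (log2 fold change 0.29, adjusted p = 0.99997), against 2.34% of all genes.

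AP-1, ETS and NF-kB factors, which bind the promoters of many protease genes, made a list of 15 genes that were all tested. At 24 h 4 of them had an unadjusted p under 0.05 (1 higher, 3 lower in ODC), against 12.2% of all genes. The lists were chosen with earlier results of these data known, so a pass is no independent support. ETV1, a factor of the ETS family, was the single gene of all these lists that passed at 24 h, where 0.189% of all genes passed. It fell from 11.3 ± 1.23 CPM in CTRL to 2.73 ± 1.00 CPM in ODC (SD, n = 3 each), a log2 fold change of -2.05 (SE 0.26, adjusted p = 0.0404, edgeR's quasi-likelihood test). It passed in 13 of 18 alternatives. The 5 in which it did not each left out 1 library, and only without ODC library 6 did it still pass with a library left out. Other genes of the list were named after their values were seen. FOSL2 and ELF3 passed in the paired fit (adjusted p = 0.0282 and 0.0424), where 5.41% of all genes did. ETV4 passed without ODC library 6 (adjusted p = 0.0403), where 0.545% did. At 2 h 1 of the 15 had an unadjusted p under 0.05, against 2.34% of all genes. It was JUND, a subunit of AP-1 (log2 fold change 0.60, adjusted p = 0.99997).

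For the difference between the times, 5.93% of all genes had an unadjusted p under 0.05. Of 10 plasminogen genes tested 2 had one, PLAT and LRP1 (1.37 on the log2 scale). So did 2 of 14 ADAM and ADAMTS proteases, ADAMTS9 (1.22) and ADAM28 (1.03). The further pericellular genes had 1 of 14, SPINT2 (-0.65), the AP-1, ETS and NF-kB factors 1 of 15, ETV1 (-1.62), and the other metalloproteinases 0 of 8. The adjusted p of all 6 in edgeR's quasi-likelihood test was 0.490 or more, and over 21 alternatives ADAMTS9 and ETV1 each passed in 2.

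The members varied together in 2 sets at 24 h. PLAU, PLAUR and MMP14 were high in the same libraries, with Pearson correlations of log2 CPM over the 6 libraries of 0.89 for PLAU with MMP14 and 0.80 for PLAUR with MMP14. MMP2 and TIMP2 were high where those were low, with 0.91 for MMP2 with TIMP2, -0.92 for MMP2 with MMP14 and -0.86 for PLAU with TIMP2. TIMP1 and TIMP2 ran opposite to each other, at -0.93. At 2 h several of these did not recur over the 5 libraries: MMP2 with MMP14 was 0.89, PLAU with TIMP2 0.45 and MMP2 with TIMP2 0.21. SERPINE2 with MMP1 was 0.99 at 2 h and 0.53 at 24 h. All are descriptions over libraries that share depth and handling.

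Over all 11 libraries, centred on the mean of each time point, 12602 genes were ranked by their correlation with a member of each role. The genes most like PLAU were FOXD1 (0.98), SMOX (0.98) and FMNL3 (0.96). Those most like MMP2 were TCN2 (0.97), SLC34A2 (0.95) and SPIDR (0.95), and those most like TIMP1 were YWHAQ (0.95), MORC4 (0.94) and KCNMA1 (0.94). Between PLAU and PLAUR the same measure was 0.94.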

How the data were processed

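Stranded mRNA libraries of 11 samples were sequenced as single-end reads. The values the authors deposited are raw counts of reads per gene symbol, in 1 table per time point, without normalization or filtering. The submitters' processing notes name STAR 2.7.0f, HTSeq 0.9.1 and edgeR 3.26.8 with the hg38 genome. The gene annotation and the strand setting of the count are not given in the sources used here. The members and gene lists were chosen with earlier results of these data known.

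From the counts, ODC was compared with CTRL at each time with edgeR 4.0.16 in R 4.3.3 (earlier quasi-likelihood method, TMM factors, filterByExpr with a minimum count of 10 and total of 15), two-sided, with Benjamini-Hochberg adjustment over all genes tested. The difference between times was a contrast in a joint fit of the 11 libraries. A gene passed at an adjusted p under 0.05. Alternatives were 3 filters on low counts (at least 1 count in total, more than 1 CPM, at least 10 counts in every library), RLE, upper quartile and no scaling, the newer and robust quasi-likelihood methods, the likelihood ratio test, DESeq2 1.42.0, the joint fit, the 24 h libraries paired by adjacent number, and each library left out. The labels give no shared replicate numbers. The adjacent numbers were taken as pairs because the deviations of each pair correlated above 0.1. Every other way to pair the 24 h libraries had at least 1 correlation below 0.1. This choice rests on the same counts that the paired fit then tested. At 2 h the numbers do not alternate. The test was checked on simulated counts.

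Named were all 10 members, PLAT, and from each list the genes past the adjusted p, or else at most 5 with the smallest unadjusted p under 0.05, per comparison. A few genes are not described here. The genes most like a member were taken for the member with the smallest 24 h p of each role, by Pearson correlation of log2 CPM (prior count 2). COL3A1, COL1A2 and THY1, shown beside TIMP3, were chosen after their values were seen. Replicate libraries differed by more than sampling noise (chi-square per gene from 19.7 to 61.5). Positions are from GENCODE release 44. Figures were drawn with matplotlib 3.10.9.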

Additional observations from a re-analysis of the deposited data

How the results depend on the processing

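The fit with adjacent numbers as pairs passed 2 members at 24 h (MMP1 and MMP7), and 5.41% of all genes. Under every other alternative the count of members past an adjusted p of 0.05 was 0 at 24 h. At 2 h it was 0 except that leaving out 1 library gave 0 to 1 (TIMP3, without CTRL library 2), and for the difference between times it was 0 throughout. Members with an unadjusted p under 0.05 at 24 h, none in the reported fit, numbered 1 with DESeq2 (MMP7), 1 in the joint fit (MMP2) and 4 in the paired fit. The share of all genes with such a p is not given for these fits, so the counts cannot be judged against it. With a library left out the members numbered 0 to 5, with 5 without ODC library 6, where 15.6% of all genes had such a p. At 2 h they numbered 1 with every gene of at least 1 count (TIMP3) and 0 to 2 with a library left out, and for the difference 0 to 2 with a library left out. Where no share of all genes stands beside such a count, it is no measure of a response of the members. No scaling changed a call or a direction of a member. The filters of more than 1 CPM and of at least 10 counts in every library removed MMP7 at 24 h.

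Directions of the members with small changes turned with single libraries, and none of these values passed the test. With a library left out, the 24 h log2 fold change ran from -0.64 to 0.0048 for PLAU, from -0.89 to 0.21 for PLAUR and from -0.24 to 0.14 for SERPINE2. At 2 h it ran from -0.13 to 0.33 for PLAU, from -0.075 to 0.15 for PLAUR, from -0.21 to 0.24 for SERPINE2, from -0.53 to 1.08 for MMP1, from -0.00086 to 0.38 for MMP2, from -0.051 to 0.23 for MMP14, from -0.12 to 0.22 for TIMP1 and from -0.016 to 0.11 for TIMP2. For PLAU, SERPINE2, MMP1, MMP2, MMP14 and TIMP1 the upper end at 2 h was without CTRL library 1 and the lower end without CTRL library 2. With every gene of at least 1 count SERPINE2 at 2 h was 0.0050. The difference between times ran from -0.98 to 0.13 for PLAUR, from -0.31 to 0.15 for SERPINE2 and from -0.69 to 1.65 for MMP7. The causes were not tested. At 24 h MMP1, MMP2, MMP7, MMP14, TIMP1 and TIMP2 kept their direction under every alternative that tested them. MMP7 had as few as 1 count in a 24 h library and TIMP3 had 0 counts in 10 libraries.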
